A study of Mus musculus with 6 samples.

Results

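The genes described here encode the proteins of the mitochondrial ribosome, in ventricles of mice at 8 weeks of age. They were chosen by name: a gene was taken when a probe set carried its symbol alone and the symbol began with Mrpl (large subunit) or Mrps (small subunit) followed by a digit. This gave 76 of the 18193 genes measured, 47 of the large and 29 of the small subunit, represented by 156 of 45101 probe sets. Each gene's value was that of its probe set with the highest mean over the 6 arrays. The groups were 3 arrays from transgenic mice that express a constantly active form of the kinase Akt in the heart (caAkt) and 3 arrays from wild-type mice of the same age. Nothing in the sources used here gives the transgene's promoter or the sex and strain of the mice. RNA came from whole ventricular tissue, so fewer cells of a type and less RNA per cell cannot be told apart. Separate hearts are not named for the arrays in the labels, so a p-value reflects how far these 6 samples scatter, and that scatter may be technical.

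Mitochondria have ribosomes of their own, which translate the few proteins encoded by mitochondrial DNA, all of them parts of the respiratory chain and the ATP synthase. The RNA of this ribosome is encoded in the mitochondria, but every one of its proteins is encoded in the nucleus, made in the cytosol and imported. Some of these proteins descend from those of bacterial ribosomes, and others were added in the evolution of mitochondria. The heart depends on this machinery because its contraction is powered mainly by oxidative phosphorylation. In humans, variants in several of these genes cause disease of the heart muscle.

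Promoter windows of 4 of the genes are shown because these genes stood at the ends of the range of change, or held matches to several of the motifs counted further on. The choice was made after the values were seen. Each window runs from 250 bases before to 50 bases after the listed start of the gene, from RefSeq on build GRCm38.p6, written 5′ to 3′ along the gene's strand. Mrpl23, which had the largest fall, is at chr7:142532782-142533081 on the plus strand. Mrps25, another of the largest falls, is at chr6:92183974-92184273 on the minus strand. Mrps18a is at chr17:46110754-46111053 on the plus strand and was lower in caAkt. Mrps6, the member that was higher in caAkt, is at chr16:92058086-92058385 on the plus strand. Capitals mark, on either strand, matches to TGCGCA (the core of the site of NRF1, a nuclear factor known to act on genes of mitochondrial proteins), CCGGAAG (a site of ETS factors such as GABP) and CCAAT (the CCAAT box).
Mrpl23: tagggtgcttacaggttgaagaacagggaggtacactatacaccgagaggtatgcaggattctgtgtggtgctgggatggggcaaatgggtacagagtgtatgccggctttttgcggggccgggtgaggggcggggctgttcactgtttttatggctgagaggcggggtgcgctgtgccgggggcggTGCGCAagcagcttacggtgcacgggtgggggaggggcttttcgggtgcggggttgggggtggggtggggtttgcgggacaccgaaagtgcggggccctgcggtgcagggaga
Mrps25: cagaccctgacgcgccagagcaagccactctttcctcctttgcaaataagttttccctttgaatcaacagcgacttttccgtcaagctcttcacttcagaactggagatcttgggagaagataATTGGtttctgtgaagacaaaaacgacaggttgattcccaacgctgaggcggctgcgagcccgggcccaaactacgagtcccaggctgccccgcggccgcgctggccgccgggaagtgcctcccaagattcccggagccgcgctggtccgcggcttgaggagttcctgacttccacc
Mrps18a: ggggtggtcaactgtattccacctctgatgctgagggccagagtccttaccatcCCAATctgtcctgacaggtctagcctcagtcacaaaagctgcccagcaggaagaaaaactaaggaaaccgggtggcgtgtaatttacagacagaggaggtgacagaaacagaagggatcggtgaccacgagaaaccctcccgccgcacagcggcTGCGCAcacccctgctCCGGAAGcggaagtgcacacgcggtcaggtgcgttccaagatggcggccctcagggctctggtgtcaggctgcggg
Mrps6: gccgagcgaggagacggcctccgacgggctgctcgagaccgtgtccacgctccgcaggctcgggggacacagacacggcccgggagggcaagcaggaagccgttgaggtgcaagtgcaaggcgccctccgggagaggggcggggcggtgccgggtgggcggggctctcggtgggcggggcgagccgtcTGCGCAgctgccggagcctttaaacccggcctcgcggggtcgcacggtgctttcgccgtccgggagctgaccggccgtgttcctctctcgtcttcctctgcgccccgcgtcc
The Mrpl23 and Mrps6 windows each held an NRF1 core, at -63 to -58 and at -62 to -57 relative to the start. Mrps25 held a CCAAT box at -127 to -123, read on the other strand, and Mrps18a held a CCAAT box at -196 to -192, an NRF1 core at -42 to -37 and an ETS site at -26 to -20. The core stood at nearly the same distance from the start in the member with the largest fall and in the member that rose. Mrpl14, which fell further than Mrps25 and is not shown, had a window without an NRF1 core, ETS site or CCAAT box.

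The deposited values are log2 signals, with medians of 6.77 to 6.80 per array. Pairs of arrays correlated at r = 0.995 to 0.997 within a genotype and 0.983 to 0.985 between genotypes, across probe sets, which are not independent replicates. Akt1, the kinase gene itself, averaged 15.11 ± 0.04 in caAkt and 9.92 ± 0.22 in wild-type on its brightest probe set (log2 signal, SD, n = 3 each), a difference in the direction of the labels. A gene was called when its adjusted p was under 0.05 in limma, with Benjamini-Hochberg adjustment over all genes. Log2 fold changes are caAkt minus wild-type. On the other Akt1 probe sets they were -0.29 (called lower), -0.21 and 0.08 (not called), in a fit over all probe sets.

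Signals of the mitochondrial ribosomal protein genes were lower in caAkt ventricles, by a modest amount in most of them. Of the 76 genes, 43 fell, 1 rose (Mrps6) and 32 were not called, beside 12.4% of all genes called lower and 16.1% called higher. The fold change was negative for 67 genes, beside 57.4% of all genes, and positive for 9, with a median of -0.26 on the log2 scale and an interquartile range of -0.38 to -0.12. Over all 18193 genes the median was -0.04. The 3 caAkt values lay wholly below the 3 wild-type values for 54 of the 76 genes, against 21.1% of all genes. They lay wholly above for 5, against 21.4% of all genes, and overlapped for 17.

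On single arrays, the median of the 76 signals was 10.79, 10.72 and 10.76 in caAkt and 11.07, 10.95 and 10.93 in wild-type. The groups did not overlap in this median. Taken relative to each gene's own mean over the 6 arrays, the median member stood at -0.11, -0.12 and -0.16 in caAkt, against 0.18, 0.11 and 0.08 in wild-type. Leaving out each array in turn left between 30 and 44 genes called lower and a median change between -0.28 and -0.23. Of the 43 genes that fell, 26 were called in all 6 of these fits.

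**Figure D1:**
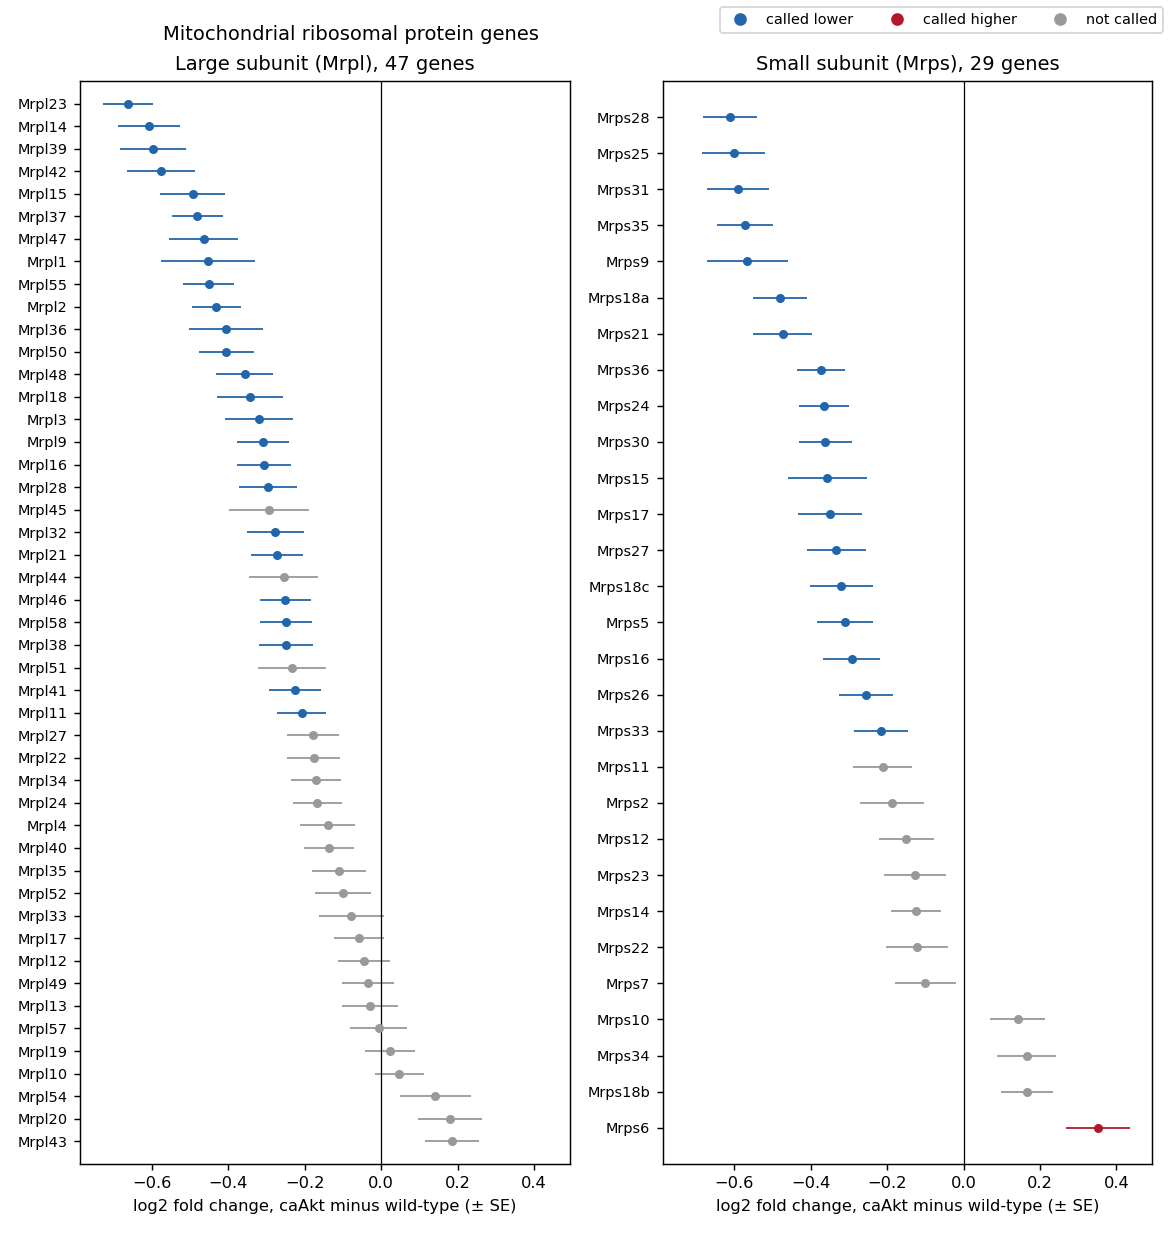
Log2 fold change (horizontal axis, caAkt minus wild-type, bars ± SE) of the 47 large-subunit genes (left panel) and the 29 small-subunit genes (right panel), 1 row per gene. Called genes are coloured; 25 large-subunit and 18 small-subunit genes were called lower, and Mrps6 was called higher.

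**Figure D2:**
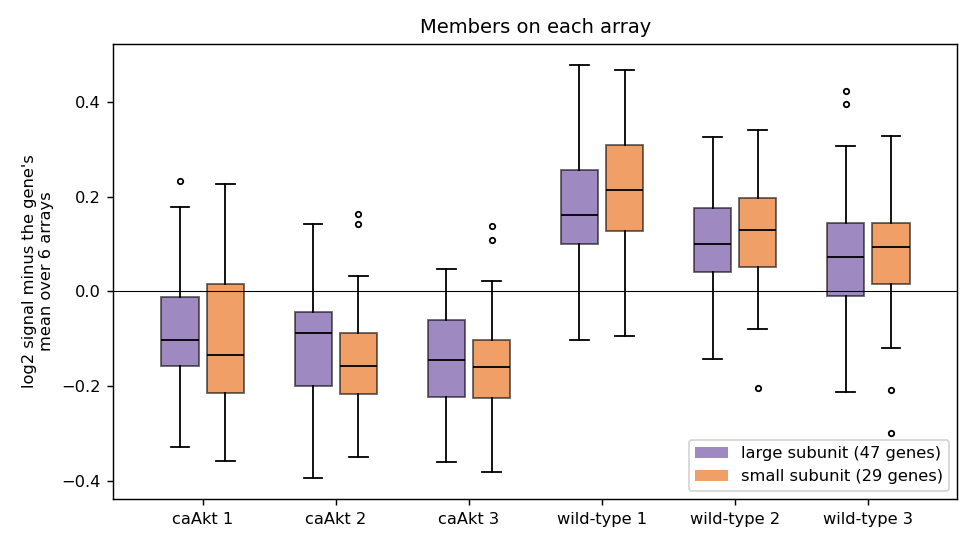
Log2 signal minus the gene's mean over the 6 arrays (vertical axis), as boxes over the 47 large-subunit and 29 small-subunit genes on each array. Boxes show the quartiles, whiskers reach the last gene within 1.5 times the box length and circles are genes beyond it; the median of both subunits lay below 0 on the 3 caAkt arrays and above 0 on the 3 wild-type arrays.

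Both subunits were lower in caAkt. In the large subunit, 25 of 47 genes fell (53.2%), none rose and the median change was -0.25. In the small subunit, 18 of 29 fell (62.1%), 1 rose and the median was -0.31. Both counts go by gene name. The small-subunit count thus includes Mrps18a and Mrps30, whose proteins are in the large subunit, and Mrps36, which is described below. All of these were called lower, at -0.48, -0.36 and -0.37, so they raise the small subunit's share and pull its median down. The 2 subunits were not tested against each other, because their genes are measured on the same arrays and are not replicates. The large subunit's count was 16 without caAkt replicate 3, and over the 6 fits with an array left out it ranged from 16 to 26, against 12 to 18 in the small subunit. Genes listed with a direct bacterial counterpart in the ribosome fell in 25 of 45 cases, with a median of -0.28. Genes listed as specific to mitochondrial ribosomes, which include Mrps18a and Mrps18b because their proteins sit elsewhere than the bacterial S18, fell in 17 of 30, with a median of -0.25. The first count became 16 without caAkt replicate 2, and 17 when wild-type replicate 1 or 2 was left out. The other count became 11 without caAkt replicate 3. The 2 classes were not tested against each other. The remaining gene, Mrps36, is now known as a component of the 2-oxoglutarate dehydrogenase complex of the citric acid cycle rather than of the ribosome, and it fell by 0.37 ± 0.06 (SE).

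Mrpl23, whose protein lies beside the tunnel through which the growing chain leaves the ribosome, had the largest fall. Its log2 signal was 11.23, 11.25 and 11.20 in caAkt and 11.86, 11.85 and 11.95 in wild-type. The gap between the groups was many times the spread within either. The change of -0.66 ± 0.07 (SE, adjusted p = 9.48e-05) means that the signal fell by 36.8%. Mrps28, a protein of the small subunit, had signals of 11.16, 11.14 and 11.03 in caAkt and 11.79, 11.66 and 11.72 in wild-type, a change of -0.61 ± 0.07. Mrpl14, which faces the small subunit and is bound by the assembly factor Malsu1 while the large subunit is immature, had 10.32, 10.37 and 10.30 in caAkt and 10.79, 10.96 and 11.06 in wild-type, a change of -0.61 ± 0.08. Neither of these 2 genes overlapped between the groups.

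Mrps25, a small-subunit protein with no bacterial counterpart, had 10.28, 10.14 and 10.15 in caAkt and 10.93, 10.73 and 10.73 in wild-type, a change of -0.60 ± 0.08. Mrpl39, a large-subunit protein that resembles part of a threonyl-tRNA synthetase, had 12.46, 12.52 and 12.48 in caAkt and 13.23, 13.11 and 12.92 in wild-type, a change of -0.60 ± 0.09. Mrps31 had 9.96, 9.94 and 9.82 in caAkt and 10.63, 10.39 and 10.46 in wild-type, a change of -0.59 ± 0.08. The lowest wild-type array stood above the highest caAkt array in each of these 3 genes. Mrpl42 had 13.24, 13.08 and 13.24 in caAkt and 13.88, 13.78 and 13.62 in wild-type, a change of -0.58 ± 0.09. Mrps35 had 10.62, 10.71 and 10.73 in caAkt and 11.31, 11.17 and 11.30 in wild-type, a change of -0.57 ± 0.07. Each of these 8 genes was called in every fit with an array left out, and the largest of their adjusted p-values there was 0.00722, for Mrpl42. With the mean of its bright and its dim probe set, Mrpl42 stood at -0.35 and was still called.

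**Figure D3:**
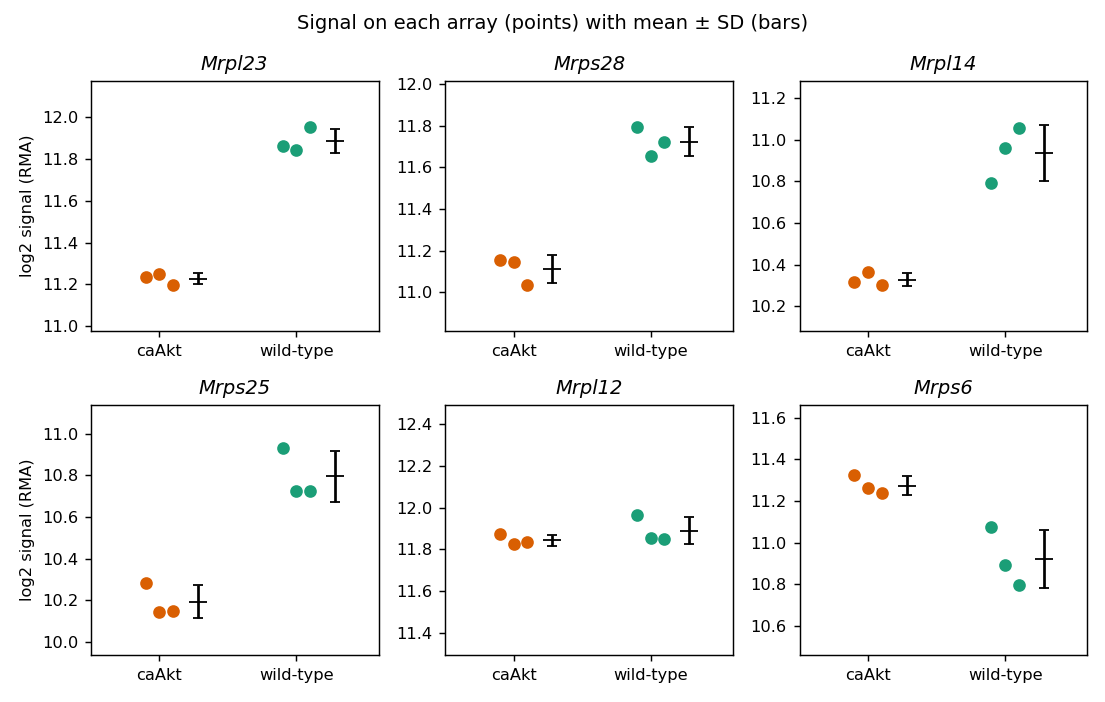
Log2 signal (vertical axis) on each array for Mrpl23, Mrps28, Mrpl14, Mrps25, Mrpl12 and Mrps6, with caAkt left and wild-type right; points are arrays and bars are mean ± SD (n = 3). The caAkt points lie below the wild-type points in the first 4 genes, mixed with them in Mrpl12 and above them in Mrps6.

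The next falls were those of Mrps9 (-0.57 ± 0.11), Mrpl15 (-0.49 ± 0.09), Mrpl37 (-0.48 ± 0.07) and Mrps18a (-0.48 ± 0.07). Mrpl15, which has a bacterial counterpart, was read by 8 probe sets, more than any other member. Of these, 5 were called lower, at -0.23 to -0.56, and the other 3 stood at -0.18 to -0.10. With plain probe sets only, whose names do not mark probes shared between transcripts, Mrpl15 was at -0.18 and Mrpl1 at -0.09, and neither was called. The smallest called falls were those of Mrpl11 (-0.21 ± 0.06) and Mrps33 (-0.22 ± 0.07). Among the 5 members with the lowest signal, Mrps27 fell by 0.33 ± 0.08, Mrpl1 by 0.45 ± 0.12, Mrps5 by 0.31 ± 0.07 and Mrps30 by 0.36 ± 0.07, while Mrps11 was not called at -0.21 ± 0.08. The call of Mrpl1 was lost without caAkt replicate 2, caAkt replicate 3 or wild-type replicate 1, with an adjusted p of up to 0.0857. Among the 5 with the highest signal, Mrpl42, Mrpl39 and Mrpl15 fell, whereas Mrpl51 (-0.23 ± 0.09) and Mrpl12 (-0.04 ± 0.07) were not called. Mean signals ran from 8.45 to 13.47, and Spearman's correlation of mean signal with fold change over the 76 genes was -0.01, a description of genes that share the same arrays.

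The large-subunit genes were also grouped by position, without a test between positions. Their counts stand beside 12.4% of all genes called lower. The central protuberance is the crown of the large subunit, where it meets the head of the small one. Of its 6 measured proteins, 5 fell: Mrpl48 by 0.36 ± 0.07, Mrpl18 by 0.34 ± 0.09, Mrpl46 by 0.25 ± 0.07, Mrpl58 by 0.25 ± 0.07 and Mrpl38 by 0.25 ± 0.07. Mrpl58 (also called ICT1) can release chains from stalled ribosomes. Mrpl40 was not called (-0.14 ± 0.07). Only Mrpl48 of these was called with every array left out. The count of 5 became 1 without caAkt replicate 3, 2 when wild-type replicate 1 was left out, and 3 when caAkt replicate 1 or wild-type replicate 2 was left out.

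Proteins around the exit of the peptide tunnel include Mrpl45, which holds the ribosome to the inner membrane. Of 8 measured, 3 fell, namely Mrpl23, Mrpl39 and Mrpl47 (-0.46 ± 0.09). The others were Mrpl45 at -0.29 ± 0.11, Mrpl44 at -0.25 ± 0.09, Mrpl22 at -0.18 ± 0.07, Mrpl24 at -0.17 ± 0.06 and Mrpl17 at -0.06 ± 0.07. After a repeated quantile normalization of the table, 7 of the 8 were called lower. Mrpl45 had 9.84, 10.05 and 9.91 in caAkt and 10.29, 10.01 and 10.39 in wild-type. Its groups overlapped because wild-type replicate 2 stood below caAkt replicate 2. Without wild-type replicate 2 it was called at -0.40 (adjusted p = 0.017), and without caAkt replicate 2 it was not called.

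The stalk is the flexible arm of the large subunit that recruits the translation factors. Mrpl12, its repeated protein, which in human cells has also been reported to bind the mitochondrial RNA polymerase, had 11.87, 11.82 and 11.83 in caAkt and 11.96, 11.85 and 11.85 in wild-type. Its groups overlapped, and the 95% interval of its change ran from -0.20 to 0.11. Mrpl10, the anchor of the stalk, was at 0.05 ± 0.06 and not called. Mrpl11, at its base, was called at -0.21 (adjusted p = 0.0378). That call was lost without any single array other than wild-type replicate 3, with an adjusted p of up to 0.124.

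The S18 family has 3 members in mammals that descend from a single bacterial protein and sit at different places. Mrps18a, which despite its name is part of the large subunit, had 10.80, 10.73 and 10.79 in caAkt and 11.29, 11.30 and 11.16 in wild-type. Mrps18c, which holds the site of the bacterial protein, had 10.96, 10.82 and 10.83 in caAkt and 11.28, 11.22 and 11.07 in wild-type, a fall of 0.32 ± 0.08. Mrps18b had 10.46, 10.51 and 10.39 in caAkt and 10.28, 10.34 and 10.26 in wild-type. Mrps18a and Mrps18c thus had lower values on all caAkt arrays, and Mrps18b had higher values on all of them, though it was not called (0.17 ± 0.07, adjusted p = 0.104). The call of Mrps18c was lost without caAkt replicate 2 or 3 or wild-type replicate 1 or 2, with an adjusted p of up to 0.0628. Mrps30, the other gene with a small-subunit name whose protein is in the large subunit, fell by 0.36 ± 0.07.

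Mrps6 was the single member that rose. Its protein is the counterpart of bacterial S6, which binds next to S18 on the platform of the small subunit. The log2 signal was 11.32, 11.26 and 11.24 in caAkt and 11.07, 10.89 and 10.80 in wild-type. All caAkt arrays stood above all wild-type arrays, and the change was 0.35 ± 0.08 (adjusted p = 0.0119), or 27.7% more signal. Both of its probe sets were called, at 0.35 and 0.36, and the call held with each array left out (adjusted p up to 0.0476). The gene overlaps Slc5a3, a sodium-coupled transporter of myo-inositol, by 29138 bases on the same strand, and the 2 listed starts are 14 bases apart. Slc5a3 had 8.23, 8.51 and 8.46 in caAkt and 7.65, 7.54 and 7.84 in wild-type, a rise of 0.72 ± 0.10 (adjusted p = 0.000764). A further probe set of Slc5a3 was called at 0.86, and another, with a dim signal, was not called at -0.07. Whether a probe set of either gene also reads transcripts of the other was not tested.

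The other members with a positive change were not called. Mrpl43 had 11.18, 11.20 and 11.07 in caAkt and 10.95, 10.91 and 11.02 in wild-type (0.18 ± 0.07, adjusted p = 0.083), and Mrps34 and Mrps10 also had all caAkt values above all wild-type values, at 0.16 ± 0.08 and 0.14 ± 0.07. Mrpl20 (0.18 ± 0.08), Mrpl54 (0.14 ± 0.09), Mrpl10 and Mrpl19 (0.02 ± 0.07) overlapped between the groups. Mrpl57 was at -0.01 ± 0.07 on its brightest probe set. Its other probe set had a change further below 0 by 0.46 and was called lower. Just inside the threshold stood Mrps33 (adjusted p = 0.0485), Mrpl11 (0.0378) and Mrpl41 (0.0344), and just outside it Mrpl44 (0.0652), Mrpl45 (0.0672) and Mrps11 (0.0726). Their changes, -0.29 to -0.21, do not separate these 2 sets. Each of the 3 inside was called in 1 of the 6 fits with an array left out, that without wild-type replicate 3, and had an adjusted p of up to 0.168 (Mrps33), 0.124 (Mrpl11) and 0.101 (Mrpl41) in the others.

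Of the genes known from human disease of the heart muscle, 3 were listed for description. Mrpl3, which binds near the site where peptide bonds are made, had 11.15, 11.15 and 11.13 in caAkt and 11.59, 11.53 and 11.28 in wild-type, a fall of 0.32 ± 0.09 (adjusted p = 0.0239). Its call was lost without any single array other than wild-type replicate 3, with an adjusted p of up to 0.0894. Mrpl44 had 10.72, 10.61 and 10.72 in caAkt and 11.07, 10.99 and 10.76 in wild-type. It was not called, although its groups did not overlap, and without wild-type replicate 3 it was called at -0.34 (adjusted p = 0.0129). The third, Mrps22, overlapped between the groups and was not called (-0.12 ± 0.08). In both Mrpl3 and Mrpl44, wild-type replicate 3 was the lowest of its group.

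Of the 76 genes, 42 had several probe sets, and in 34 of these all had the same sign. In no gene were probe sets called in opposite directions. Of all 156 probe sets, 67 were called lower and 2 higher, beside 8.76% and 11.3% of all probe sets. The sign differed, with a probe set called, in 5 genes. In Mrpl38, Mrpl48 and Mrps5 the brightest probe set was called lower, and a dimmer one was not called, at 0.01 to 0.15. With the mean of their probe sets, Mrpl48 was at -0.23 and called, while Mrpl38 (-0.07) and Mrps5 (-0.15) were not. In Mrps14 the brightest was not called (-0.12), a dimmer one was called at -0.48, and the dimmest was at 0.15. In Mrps10 the brightest was at 0.14 and not called, and the other, called, was at -0.34, so the direction of this gene depends on the probe set. Probe sets that carry 2 symbols, and so count for no member, were at -0.41 ± 0.08 for Mrpl30 with Gm6238 (called, adjusted p = 0.00775) and 0.10 ± 0.07 for Mrpl53 with Ccdc142 (not called).

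Promoter windows were found for 67 of the 76 genes. NRF1 cores (TGCGCA) were in 21 of these windows (31.3%), against 7.76% of all 32851 windows of this length and 11.7% of the 14452 windows of measured genes. ETS sites (CCGGAAG) were in 24 (35.8%), against 8.86% of all windows and 13.8% of those of measured genes. YY1 sites (AAGATGG) were in 13 (19.4%), against 6.34% and 6.62%, and sites of the oestrogen-related receptors (AAGGTCA) were in 4 (5.97%), against 4.72% and 3.85%. The Sp1 box (GGGCGG) was in 34 (50.7%), above the 35.7% of all windows but below the 54.0% of those of measured genes. CCAAT was in 26 (38.8%), against 37.4% and 38.2%. Every motif was searched on both strands, and none of these strings of letters contains another, though neighbouring matches can overlap. In the windows of 56 cytosolic ribosomal protein genes, the shares were 17.9% for the NRF1 core and 39.3% for the ETS site.

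Within the 67 windows, those of genes that fell were set beside those of genes that were not called. CCAAT was in 22 of 39 windows of lowered genes (56.4%) and in 4 of 27 windows of genes not called (14.8%). The median change of members with CCAAT was -0.35, and that of members without it was -0.21. The NRF1 core was in 11 of 39 (28.2%) and 9 of 27 (33.3%), and the ETS site was in 11 of 39 (28.2%) and 13 of 27 (48.1%). Median changes were -0.25 with and -0.28 without the NRF1 core, and -0.20 with and -0.31 without the ETS site. The YY1 site was in 7 of 39 (17.9%) and 6 of 27 (22.2%), and the Sp1 box in 21 of 39 (53.8%) and 12 of 27 (44.4%). The site of the oestrogen-related receptors was in 3 of 39 (7.69%) and 1 of 27 (3.70%). CCAAT had the widest gap of the motifs counted, and they were compared with the calls known. These are matches of letters in a fixed window, described without a test.

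Some of these genes start back to back with another gene and share the stretch between the starts with it. How common this is among all genes was not counted. Within 1000 bases, 25 of the 67 members with a promoter window had such a neighbour. Of these, 2 (Mrpl46 and Mrps11) are each other's. For the other 23, the neighbour was measured and was no member: 5 neighbours fell, 2 rose and 16 were not called, with a median of -0.12. Of the 14 whose member fell, the neighbour fell in 3, rose in 2 and was not called in 9. Over all genes, 12.4% were called lower and 16.1% higher, and the neighbours were not tested against these shares. Mrpl14 and the ion channel gene Tmem63b, with starts 131 bases apart, both fell, at -0.61 and -0.33. Mrpl2 fell by 0.43 ± 0.06, and Klc4, a kinesin light chain gene 141 bases away, rose by 0.36 ± 0.08. Mrpl18 fell, and Tcp1, a subunit of the cytosolic chaperonin whose start is 238 bases away, rose by 0.26 ± 0.08. The reverse arrangement was seen at Mrpl43, which had a positive change and was not called, while Twnk, the helicase that unwinds mitochondrial DNA, fell by 0.46 ± 0.07 from a start 116 bases away. Cyb5rl, the neighbour of Mrpl37, was among the 3 that fell (-0.31 ± 0.10), but was called in 0 of the 6 fits with an array left out (adjusted p up to 0.158). The third was Ptcd2, the neighbour of Mrps27, which was called in each of them. Without caAkt replicate 1, only Ptcd2 of these 3, and 3 of the 5 lowered neighbours (Ptcd2, Twnk and Ppp1r10), were still called. The calls of Tmem63b (adjusted p up to 0.122) and Tcp1 (up to 0.103) were lost without caAkt replicate 1 or 3 or wild-type replicate 2 or 3, and that of Tcp1 also without caAkt replicate 2. Twnk and Klc4 were called with each array left out. These pairs were named after their values were seen.

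**Figure D4:**
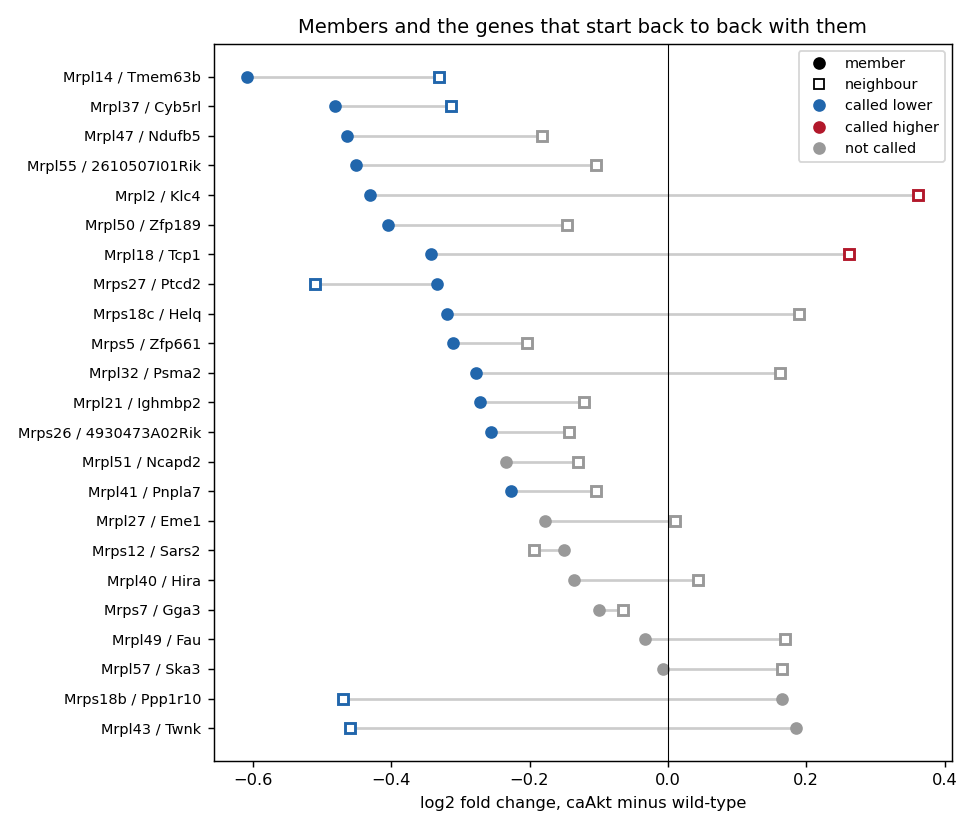
Log2 fold change (horizontal axis, caAkt minus wild-type) of 23 members (filled circles) and of the gene that starts back to back with each (open squares), joined by a line. Blue, red and grey mark genes called lower, called higher and not called; 14 of the members and 5 of the neighbours were called lower.

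Other genes of mitochondrial translation were lower as well, beside 12.4% of all genes called lower. Of 4 measured ribosomal proteins whose names do not begin with Mrp, Dap3, a small-subunit protein that binds GTP, had 11.13, 11.22 and 11.10 in caAkt and 11.62, 11.54 and 11.50 in wild-type, a fall of 0.41 ± 0.07 (adjusted p = 0.00226). Chchd1 fell by 0.27 ± 0.09 and Ptcd3 by 0.21 ± 0.07, and Gadd45gip1 was not called (0.04 ± 0.08). In 5 of the 6 fits with an array left out (all but that without wild-type replicate 3), the count of 3 became 1, because Chchd1 and Ptcd3 were lost, and it was also 1 with the replicate number as a block or with median centring.

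Beside 12.4% of all genes called lower, 7 of 11 factors that drive the ribosome fell, none rose and the median was -0.35. They were the initiation factor Mtif2 (-0.49 ± 0.10), the release factor Mtrf1l (-0.48 ± 0.12), the elongation factor Gfm1 (-0.42 ± 0.10), the recycling factors Mrrf (-0.38 ± 0.08) and Gfm2 (-0.35 ± 0.06), the elongation factor Tufm (-0.37 ± 0.07) and Oxa1l (-0.31 ± 0.08), which inserts new chains into the inner membrane. Tufm, which brings the aminoacyl-tRNA, had 11.12, 11.21 and 11.11 in caAkt and 11.48, 11.49 and 11.58 in wild-type, without overlap. Guf1 (-0.20 ± 0.07), Tsfm (-0.14 ± 0.07), Mtif3 (-0.07 ± 0.06) and Mtfmt (-0.02 ± 0.06) were not called. With an array left out, between 5 and 8 factors were called. Mtrf1l was lost without caAkt replicate 3, wild-type replicate 1 or wild-type replicate 3 (adjusted p up to 0.0653), and Oxa1l was lost without caAkt replicate 3 or wild-type replicate 1 (adjusted p up to 0.0554). Gfm2 was at -0.16 and not called when its probe sets were averaged.

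Of 28 genes listed under assembly and modification of the ribosome, 16 fell and 1 rose, against 12.4% and 16.1% of all genes. The median was -0.36. The list is broad, and the role of each gene was not examined here. Tfb1m, which methylates the RNA of the small subunit, had 8.15, 8.06 and 7.86 in caAkt and 9.09, 8.77 and 8.70 in wild-type. Its fall of 0.83 ± 0.12 (adjusted p = 0.000681) was larger than that of any of the 76 genes. Mettl15, another methyltransferase of that RNA, fell by 0.71 ± 0.14. The GTPases Mtg1, Mtg2 and Gtpbp10, which act on the maturing large subunit, fell by 0.54 ± 0.07, 0.48 ± 0.08 and 0.48 ± 0.11. Mrm1, Mrm2 and Mrm3, which methylate the RNA of the large subunit, fell by 0.37 ± 0.08, 0.28 ± 0.07 and 0.41 ± 0.07, and the pseudouridine synthase Rpusd4 fell by 0.43 ± 0.07. The others on the list that fell were Rmnd1, Lrpprc, Mterf3, Rbfa, Malsu1, C1qbp and Mettl17, at -0.54 to -0.29. Mpv17l2, an inner-membrane protein that takes part in ribosome assembly, rose by 0.30 ± 0.07 (adjusted p = 0.0141). That rise was not called without caAkt replicate 1 (adjusted p = 0.0524). The fall of Mrm2 was not called without caAkt replicate 1, caAkt replicate 3 or wild-type replicate 3 (adjusted p up to 0.0697), and that of C1qbp was lost without caAkt replicate 1 or 2 or wild-type replicate 1 or 2 (adjusted p up to 0.067). On plain probe sets only, Tfb1m was at -0.46 and Mettl15 at -0.45, both called, and Mtg2 (-0.19) and Mterf3 (-0.13) were not called.

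Genes of the cytosolic ribosome, which makes all other proteins of the cell, were examined alongside. Of 42 measured genes, none fell and 1 rose, Rpl41, by 0.24 ± 0.06, against 12.4% and 16.1% of all genes. The median was 0.03. This median turned slightly negative with array weights (-0.004) and without wild-type replicate 3 (-0.02). Genes read only by probe sets with several symbols are not among the 42. On plain probe sets only, 22 genes were left, none was called and the median was 0.02. Rpl41 was not called without caAkt replicate 1, caAkt replicate 3 or wild-type replicate 1 (adjusted p up to 0.0605). On single arrays, the median signal of these genes was 13.48, 13.47 and 13.58 in caAkt and 13.51, 13.51 and 13.36 in wild-type, which overlap. The difference between the cytosolic and the mitochondrial genes was not tested, since both are read on the same arrays. ND5, the transcript of mitochondrial DNA measured here, encodes a subunit of respiratory complex I. It had 15.04, 14.87 and 14.97 in caAkt and 15.14, 15.14 and 14.76 in wild-type, and was not called (-0.05 ± 0.11, adjusted p = 0.751).

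**Figure D5:**
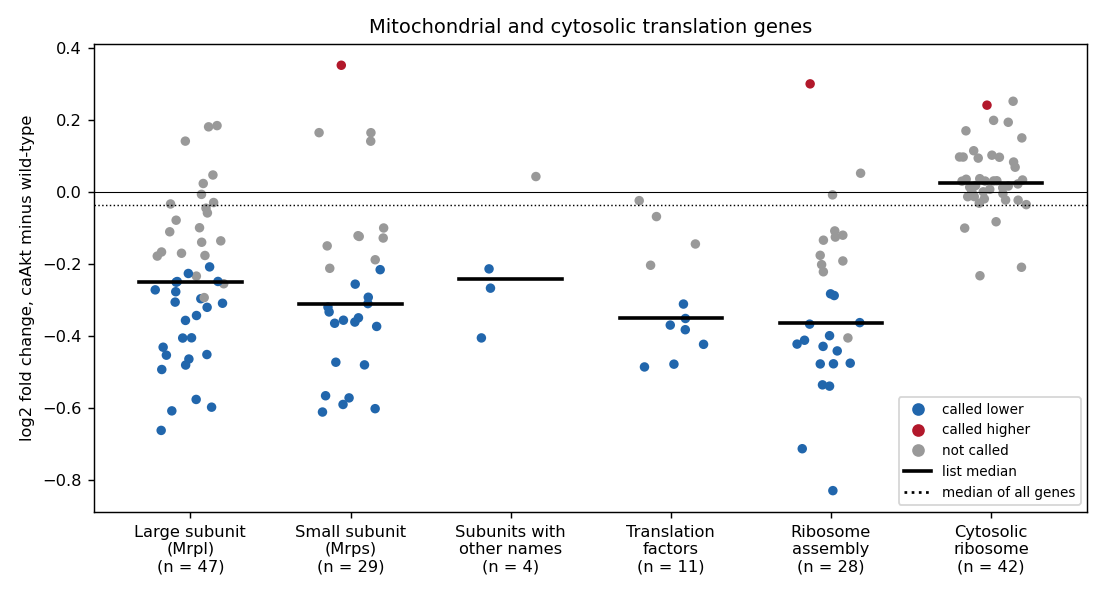
Log2 fold change (vertical axis, caAkt minus wild-type) of each gene in 6 groups of translation genes; points are genes, bars are group medians and the dotted line is the median of all genes (-0.04). Medians are -0.25 and -0.31 for the mitochondrial ribosomal subunits, -0.35 for translation factors, -0.36 for assembly genes and 0.03 for the cytosolic ribosome.

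Markers of cell types also moved between the groups, beside 12.4% of all genes called lower and 16.1% called higher. Of 12 cardiomyocyte markers, 6 were called lower and none higher, with 3 changes positive and a median of -0.26. The median change of the ribosomal protein genes was -0.26 too. By another measure they were less alike. The median signal on each array, averaged by genotype, differed by -0.38 for these markers and -0.22 for the ribosomal protein genes. The median signal of the cardiomyocyte list was 14.56 to 14.60 on caAkt arrays and 14.85 to 15.01 on wild-type arrays. Tcap, a protein of the sarcomere's Z-disc, fell by 0.67 ± 0.08, whereas Tnnt2 (0.06 ± 0.07), Actc1 (0.13 ± 0.07) and Ttn (-0.04 ± 0.07) were not called. Of 12 macrophage markers, 11 rose and Cd163 fell, and the list's median signal was 10.62 to 10.98 in caAkt and 9.14 to 9.35 in wild-type. Of 10 fibroblast markers, 8 rose, with a median signal of 12.95 to 13.24 in caAkt and 11.01 to 11.18 in wild-type. Of 10 endothelial markers, 3 fell and none rose, with a median signal of 10.02 to 10.18 in caAkt and 10.28 to 10.32 in wild-type. The part of these shifts in the change of the ribosomal protein genes was not tested.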

How the data were processed

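Per the labels' protocols, ventricular RNA was isolated with Trizol and RNeasy kits, and biotin-labelled targets were hybridised to 6 arrays. The deposited values are log2 signals of probe sets, which the authors made with RMA in the package affy, per the submitters' processing notes; their versions are not given in the sources used here. RMA corrects the background, equalises the arrays' distributions and summarises each probe set, so a change is one relative to most other genes, and signals of different probe sets do not rank genes by abundance. With 3 arrays in each genotype, array number limits the precision.

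The 64 control probe sets, and probe sets with several symbols (932) or none (9160) in the platform annotation, were left out. Each gene's brightest probe set was compared between caAkt and wild-type with limma 3.58.1 in R 4.3.3 (lmFit, eBayes, two-sided, genotype as the term, 4 residual degrees of freedom). P-values were adjusted with Benjamini-Hochberg over 18193 genes and called under 0.05; probe sets were fitted and adjusted over all probe sets other than controls. The steps were tested on simulated data, where recovery was required only for changes larger than that of any member. All 6 arrays' columns were mapped by title, and all arrays differed from each other.

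Members, gene lists and tests were chosen with earlier results of these data known. Members named with values were, by rule, the 8 largest falls, the 8 highest changes, those called higher, the 5 brightest and 5 dimmest, the 3 nearest the threshold on each side, the members of the structural and disease groups, Mrps36, Mrps5 and genes whose probe sets disagreed in sign with any called. Beyond the rule, all translation factors, the called assembly genes and, after their values were seen, Mrps9, Mrpl2, Mrpl13, Mrpl19, Mrpl37, Mrpl57 and the neighbouring genes were named. Promoter windows and gene positions came from RefSeq tables of assembly GRCm38.p6, in which all 76 members were found by symbol. Where a gene had several windows, the first listed was used for motif counts by gene and for the printed windows. The shares over all 32851 windows and the search for back-to-back neighbours used every window.

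Alternatives changed the moderation (eBayes with trend and robust), the gene value (mean over probe sets, or plain probe sets, whose names carry no _x_at, _s_at or _a_at ending), the filter (mean log2 value of at least 5), the scaling (median centring, or quantile normalization again), the weights of arrays, the blocking (by replicate number), the threshold (0.01) and the arrays used (each left out).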

Additional observations from a re-analysis of the deposited data

How the results depend on the processing

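Members called lower numbered 34 to 53 and members called higher 1 or 2 over the 8 fits that kept all arrays and the threshold, and 24 of the 43 lowered genes were called in each of these that tested them and in each fit with an array left out. The 34 came from plain probe sets alone, which leave 62 members; the 53 came from a repeated quantile normalization, under which the median change was -0.32 over all members and -0.31 in the large subunit. With array weights 2 members were called higher, Mrps6 and Mrpl43. At an adjusted p under 0.01, 22 members were lower (12 large, 10 small) and 0 higher, beside 1270 lower genes in all. Leaving out each array in turn gave 30 to 44 members lower, 16 to 26 in the large subunit (16 without caAkt replicate 3) and 12 to 18 in the small one, and medians of -0.28 to -0.23 over all members.

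Deviations from the genotype mean correlated at 0.27, 0.03 and -0.12 between same-numbered arrays of the 2 genotypes. Between arrays of unlike number the values ran from -0.27 to 0.23. Deviations from a mean of 3 arrays are tied to each other, so these values cannot tell whether same-numbered arrays were handled together. With the replicate number as a block, 40 members were lower (23 large, 17 small) and 1 was higher.

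The sign turned for genes near 0 and for genes whose probe sets disagree, and the cause was not tested. Repeated quantile normalization gave -0.014 for Mrpl10, -0.042 for Mrpl19 and -0.028 for Gadd45gip1. The mean of probe sets gave -0.10 for Mrps10, -0.16 for Gadd45gip1 and 0.014 for Mtfmt, and Mrpl19 was negative there too. With single arrays left out, Gadd45gip1 ran from -0.0062 (without wild-type replicate 1) to 0.10, and ND5 from -0.18 to 0.011 (positive without wild-type replicate 1 or 2). Mrpl13 reached 0.013 without wild-type replicate 1, and Mrpl57 was positive, up to 0.033, with median centring and without caAkt replicate 3, wild-type replicate 1 or wild-type replicate 2. Akt1 was at -0.29 on plain probe sets only, which leave out the probe set with the high caAkt signal. Signal near the floor limits the dimmest probe sets. Results on gene lists and on genes other than members under these settings were added after the data were seen.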
